A study of Mus musculus with 28 samples.

Results

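Pretreatment of mouse embryonic fibroblasts (MEFs) with a p38 inhibitor was compared with its DMSO control on day 3 of reprogramming to induced pluripotent stem cells. The comparison rests on 4 RNA-seq libraries of the 28 in the series, 2 labelled pre_p38i on day 3 and 2 labelled as the OKS reprogramming control of the same day, and the libraries were chosen by those labels alone. All 4 came from wild-type mouse embryo cells that carry the OG2 reporter, a transgene in which Oct4 regulatory sequence drives GFP. They were infected with retroviruses for Oct4, Klf4 and Sox2 (the OKS factors) and moved to iCD1, a chemically defined induction medium. The pre-p38i cells had SB203580, an inhibitor of the p38 MAP kinases, during MEF culture before iCD1 induction. The control had DMSO. A separate arm, called p38i, had SB203580 during induction, and its 2 day 3 libraries are given only beside the results. Each library is bulk RNA of a whole culture, in which infected and uninfected cells are not separated. The labels do not say whether replicates came from separate embryos, cultures or infections, so p-values measure only the spread between libraries.

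p38α and its relatives are stress-activated kinases that act on transcription factors, on other kinases and on mRNA stability. In MEFs they take part in stress signalling, in cytokine expression and in the brake on proliferation, and the study asked whether blocking them before induction changes how fibroblasts are reprogrammed. In the first days of factor-driven reprogramming, fibroblasts lose contractile and extracellular matrix transcripts and take on epithelial features, while the endogenous pluripotency network is switched on late. Interferons are secreted antiviral cytokines whose receptors signal through JAK kinases and STAT factors to a large set of target genes.

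The deposited values are whole numbers, read here as TPM (transcript abundance scaled for gene length and library size) rounded down, because the libraries have nearly equal totals. No source states this. Low genes are therefore coarse and the read depth is unknown. The 4 libraries summed to 991503 to 991562 TPM, listed 13807 to 13871 genes at 1 TPM or more, and spent 7.77 to 8.65% of their TPM on the 10 highest genes and 4.51 to 5.57% on mitochondrial genes. The sum of Pou5f1 (Oct4), Sox2 and Klf4 was 18 to 20 TPM in MEFs and 4769 to 5773 TPM in the 4 libraries, so the induced label held. Pou5f1 was 3488 and 3216 TPM with DMSO and 3774 and 3686 TPM with pre-p38i, a log2 difference of 0.16 (adjusted p = 0.0192) that was lost without either pre-p38i library or without DMSO replicate 2 (highest adjusted p = 0.227). Sox2 and Klf4 did not pass the test (adjusted p = 0.520 and 0.0909). On day 1 the same sum was 4848 and 4494 TPM with DMSO and 5894 and 6020 TPM with pre-p38i. Pou5f1 was higher with pre-p38i on that day (log2 difference 0.39, limma, adjusted p = 1.12e-05). Its difference was smaller on day 3 (change -0.23, limma, adjusted p = 0.036). Sox2 and Klf4 did not pass on day 1 (adjusted p = 0.272 and 0.0943). The part of this gap in the day 3 differences was not tested.

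Differences are pre-p38i minus DMSO on the log2(TPM + 1) scale, which understates changes of low genes. Each adjusted p is from limma with Benjamini-Hochberg adjustment over 13230 genes, with a call at adjusted p under 0.05 and n = 2 libraries per group. Of these genes 2729 were called (20.6%), 1820 higher with pre-p38i (13.8%) and 909 lower (6.87%). Among them 198 were higher and 129 lower by at least 1 log2 unit. Quantile normalization called 2606 genes, of which 50.7% were higher, against 66.7% in the main analysis, so the split of calls depends on the scaling. The median difference over all tested genes was 0.07. The groups did not overlap in 6757 genes (51.1%). An exact permutation test of 2 against 2 libraries cannot give a p below 0.33, so every call rests on a spread shared over the 14 groups of the series. With the 4 libraries fitted alone the count was 753, and it was 1568 without pre-p38i replicate 1, 1776 without pre-p38i replicate 2 and 1698 without DMSO replicate 1.

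**Figure D1:**
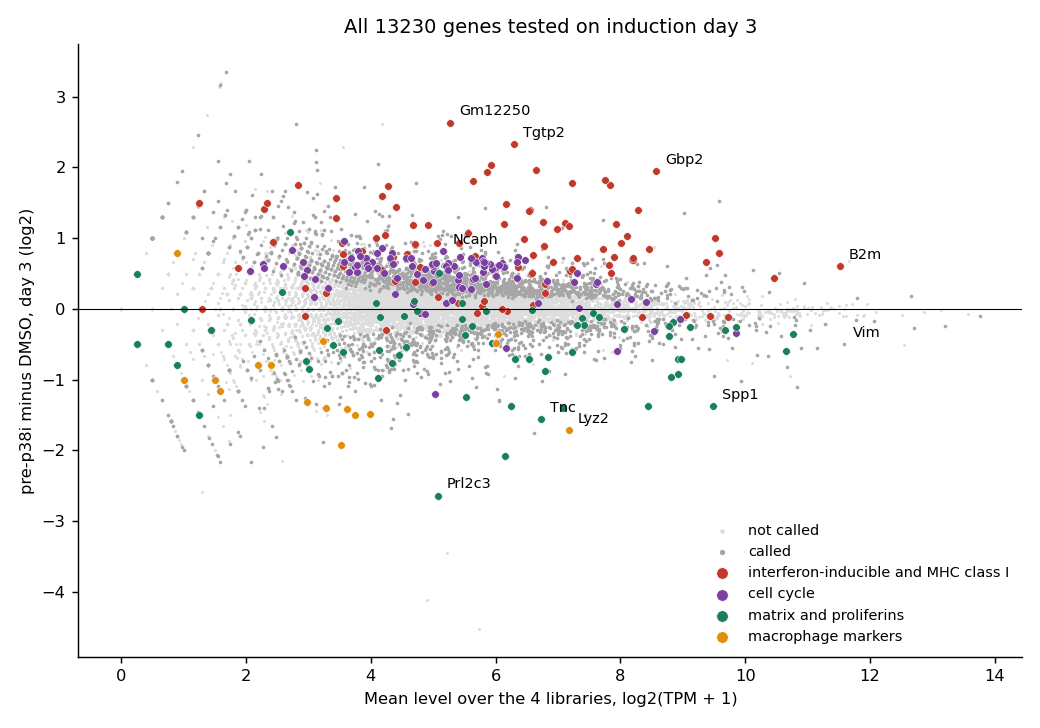
Each point is 1 of 13230 genes, with the mean log2(TPM + 1) over the 4 day 3 libraries on the x axis and the log2 difference, pre-p38i minus DMSO, on the y axis. Interferon-inducible and MHC class I genes (red) lie mostly above 0 and reach 2.63 at Gm12250, matrix and proliferin genes (green) lie mostly below 0 and reach -2.64 at Prl2c3, and cell cycle genes (purple) lie mostly above 0.

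Interferon-inducible GTPases were higher with pre-p38i. Immunity-related GTPases (IRGs) and guanylate-binding proteins (GBPs) are GTPases that attack the vacuoles of intracellular pathogens, and both families are classical interferon-gamma targets. All 8 tested IRGs were called higher (median difference 1.79) and all 9 tested GBPs of 11 listed were called higher (1.57), against 13.8% of all genes called higher. In every one of these 17 genes both pre-p38i libraries lay above both DMSO libraries, as they did, in one direction or the other, for 51.1% of all genes.

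The promoters of the Gm12250, Tgtp2, Gbp2 and Gbp2b genes are shown because, among the IRGs and GBPs that changed most, they hold at least 1 of the 2 motifs searched, so that the presence of a motif in these 4 windows follows from how they were chosen. Each is 300 bases around the RefSeq gene start (GRCm38.p6), read 5′ to 3′ on the gene's strand, with 2 motifs in capitals wherever they occur on either strand. A pair of GAAA repeats with any 2 bases between them is the core to which interferon regulatory factors bind, and TTCNNNGAA is the palindrome to which STAT dimers bind.
Gm12250, chr11:58183593-58183892, plus strand: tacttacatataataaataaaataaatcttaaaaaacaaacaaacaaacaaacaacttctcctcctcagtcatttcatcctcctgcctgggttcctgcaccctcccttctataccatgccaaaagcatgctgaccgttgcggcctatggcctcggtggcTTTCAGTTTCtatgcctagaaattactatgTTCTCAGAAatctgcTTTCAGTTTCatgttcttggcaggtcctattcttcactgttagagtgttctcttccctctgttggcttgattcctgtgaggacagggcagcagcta
Tgtp2, chr11:49064163-49064462, minus strand: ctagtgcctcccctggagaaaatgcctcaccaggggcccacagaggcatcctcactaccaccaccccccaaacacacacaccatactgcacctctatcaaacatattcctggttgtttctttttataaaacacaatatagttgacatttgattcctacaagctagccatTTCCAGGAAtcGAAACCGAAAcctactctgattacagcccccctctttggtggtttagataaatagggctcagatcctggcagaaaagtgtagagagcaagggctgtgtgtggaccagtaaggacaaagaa
Gbp2, chr3:142620413-142620712, plus strand: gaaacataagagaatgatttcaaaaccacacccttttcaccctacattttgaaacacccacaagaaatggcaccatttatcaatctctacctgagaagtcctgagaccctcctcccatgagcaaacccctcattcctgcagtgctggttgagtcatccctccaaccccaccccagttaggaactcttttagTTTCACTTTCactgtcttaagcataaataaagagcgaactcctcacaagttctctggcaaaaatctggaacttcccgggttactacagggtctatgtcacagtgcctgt
Gbp2b, chr3:142594597-142594896, plus strand: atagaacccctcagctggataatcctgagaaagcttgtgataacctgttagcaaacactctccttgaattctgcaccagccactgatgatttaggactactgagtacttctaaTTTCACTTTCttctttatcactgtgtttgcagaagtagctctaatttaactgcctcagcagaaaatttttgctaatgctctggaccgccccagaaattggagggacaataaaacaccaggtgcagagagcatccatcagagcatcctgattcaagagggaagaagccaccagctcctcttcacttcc
The Gm12250 window held the GAAA pair at 2 places and TTCNNNGAA at 1, and the Tgtp2 window held each at 1 place. The Gbp2 and Gbp2b windows each held 1 GAAA pair and no TTCNNNGAA. Of the 12 IRGs and GBPs with a RefSeq window, out of 19 listed, 11 held the GAAA pair (91.7%), and 13 of 23 antiviral genes did (56.5%), against 3.99% of 27025 genes. TTCNNNGAA was in 7 of the 12 (58.3%) and in 7 of the 23 antiviral genes (30.4%), against 9.55% of genes. Both motifs were sparser in the MHC class I genes described below. The GAAA pair was in 3 of 8 heavy chain and B2m genes (37.5%) and 2 of 11 peptide supply genes (18.2%). TTCNNNGAA was in 0 of the 8 and 1 of the 11 (9.09%). These matches describe letters in a window and not binding.

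GENCODE M21 lists Gm12250, also known as Irgb10, as a processed pseudogene at chr11:58187739-58189012. The RefSeq window shown above lies upstream of that model and does not touch it. Gm12250 was 9 and 23 TPM with DMSO and 87 and 104 TPM with pre-p38i. The log2 difference was 2.63 (SE 0.26, adjusted p = 8.56e-07), and both pre-p38i libraries stood well above the higher DMSO library. Tgtp2 was 22 and 52 TPM against 165 and 183 TPM, a log2 difference of 2.32 (SE 0.30, adjusted p = 2.2e-05). Its copy Tgtp1 shares near-identical sequence, so the division of reads between the pair is uncertain, but Tgtp1 also rose, from 467 and 575 TPM to 1076 and 1000 TPM. Iigp1, whose protein coats parasite vacuoles, was 20 and 42 TPM against 118 and 127 TPM (log2 difference 2.04, SE 0.21, adjusted p = 1.12e-06). Ifi47 was 89 and 145 TPM against 402 and 410 TPM, and Igtp was 96 and 159 TPM against 398 and 437 TPM. For both the pre-p38i replicates were closer to each other than the DMSO replicates were. The spans of Igtp and Irgm2 overlap on the same strand, so the division of reads between them is uncertain. Irgm1, a regulator of the family, changed least, from 458 and 601 TPM to 805 and 865 TPM (log2 difference 0.67). Irgm2 was 71 and 100 TPM against 178 and 195 TPM, and lost its call without DMSO replicate 1 (adjusted p = 0.0734). Summed over the family, DMSO held 1232 and 1697 TPM and pre-p38i held 3229 and 3321 TPM. The same sum was 28 to 32 TPM in untreated MEFs and 26 to 28 TPM in p38i-treated MEFs.

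Among the GBPs, Gbp2 was 156 and 237 TPM with DMSO and 734 and 751 TPM with pre-p38i (log2 difference 1.94, SE 0.20, adjusted p = 1.47e-06). Gbp2b was 64 and 98 TPM against 275 and 275 TPM (log2 difference 1.78, SE 0.14, adjusted p = 5.54e-08). Gbp7 was 40 and 51 TPM against 102 and 108 TPM. Gbp3 was 145 and 175 TPM against 357 and 378 TPM and lost its call without DMSO replicate 1 or pre-p38i replicate 2 (highest adjusted p = 0.0834). Gbp4, Gbp6, Gbp10, Gbp8 and Gbp11 are near-identical copies at low levels, so their separate values are uncertain. Of these, Gbp4 was 7 and 13 TPM against 28 and 42 TPM, Gbp6 was 4 and 7 TPM against 15 and 21 TPM, and Gbp10 was 2 and 4 TPM against 12 and 12 TPM.

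DMSO replicate 1 stood below DMSO replicate 2 across these genes. The median log2 difference between the DMSO replicates was -0.71 over the IRGs (lower in 8 of 8 genes) and -0.60 over the GBPs (8 of 9), while between the pre-p38i replicates it was -0.12 and -0.08. Without DMSO replicate 1, 7 IRGs were called higher with a median of 1.43 and 8 GBPs with a median of 1.33. The calls also depended on the model. With a pseudocount of 0.1 instead of 1, 4 IRGs and 5 GBPs were called, and with the 4 libraries fitted alone 0 IRGs and 1 GBP were.

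**Figure D2:**
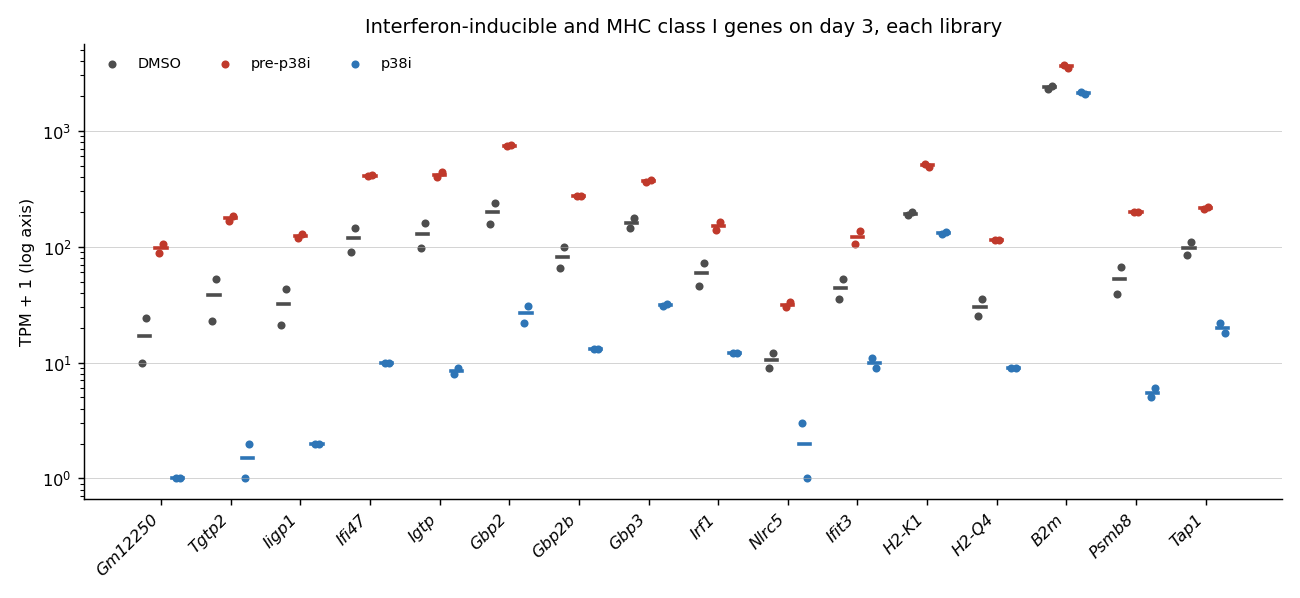
TPM + 1 on a log axis for 16 interferon-inducible and MHC class I genes in each day 3 library, with a bar at each group's mean (DMSO, pre-p38i and p38i, n = 2 each). The pre-p38i libraries lie above the DMSO libraries for every gene drawn, from Gm12250 (87 and 104 against 9 and 23 TPM) to Tap1 (212 and 219 against 83 and 109 TPM), and the p38i libraries lie below both.

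Most antiviral effector genes rose, by smaller amounts. Of 34 tested, 23 were called higher and 0 lower, with a median of 0.77. Samhd1, which degrades dNTPs, rose from 64 and 77 TPM to 167 and 163 TPM (log2 difference 1.22, adjusted p = 2.69e-07). Ifit3, which binds foreign RNA complexes, was 34 and 52 TPM against 105 and 135 TPM, and shares sequence with Ifit3b (14 and 26 against 40 and 50 TPM). The tethering factor Bst2 was 523 and 645 TPM against 984 and 1020 TPM (0.79, adjusted p = 2.9e-06). Isg15, a ubiquitin-like modifier, was 238 and 289 TPM against 441 and 504 TPM (0.84, adjusted p = 0.00627), and lost its call without DMSO replicate 1 or pre-p38i replicate 2 (highest adjusted p = 0.078). Oas3, which makes the activator of RNase L, was 11 and 11 TPM against 24 and 22 TPM. These genes did not overlap between the groups, but not every member of the list moved. Eif2ak2, the double-stranded RNA kinase PKR, was 53 and 53 TPM against 57 and 58 TPM, and Ifitm2 was 564 and 528 TPM against 508 and 523 TPM. Both missed the test. Without DMSO replicate 1, 17 antiviral genes were called higher with a median of 0.64, and with the 4 libraries alone 7 were.

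Upstream of these targets, the transcription factors and signalling genes of the pathway rose less. Of 14 tested, 9 were called higher and 0 lower (median 0.45), which fell to 4 without DMSO replicate 1. Irf1, a transcription factor that is itself an interferon-gamma target, was 45 and 71 TPM against 139 and 163 TPM (log2 difference 1.40, adjusted p = 4.34e-05). Stat2 was 114 and 127 TPM against 178 and 172 TPM. The groups were separate for both genes. Nlrc5, the activator of MHC class I genes, was 8 and 11 TPM against 29 and 32 TPM (1.60), and Irf7 was 88 and 103 TPM against 149 and 153 TPM (0.66). Both lost their calls without DMSO replicate 1 (adjusted p = 0.0672 and 0.0804). Socs1, a feedback inhibitor, was 17 and 19 TPM against 32 and 38 TPM and lost its call without DMSO replicate 1 or pre-p38i replicate 2 (highest adjusted p = 0.102). Jak1 stayed within the spread, at 73 and 71 TPM against 70 and 71 TPM. Of 7 cytosolic nucleic acid sensors 2 were called higher, namely the RNA helicases Ddx58 (120 and 125 against 185 and 179 TPM) and Ifih1 (22 and 21 against 32 and 34 TPM).

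At the top of the pathway there was little signal. None of the 9 interferon ligand genes passed the filter, their sum was 0 and 0 TPM with DMSO and 1 and 2 TPM with pre-p38i, and Ifnb1 was listed at 0 in all 28 libraries. Of the 4 receptor genes tested, Ifngr2 was called lower, at 22 and 18 TPM against 16 and 16 TPM (log2 difference -0.30, adjusted p = 0.0328), and lost its call without DMSO replicate 1 or either pre-p38i library (highest adjusted p = 0.364). Ifnar1 was 54 and 53 TPM against 54 and 56 TPM. Over the whole interferon list 51 of 76 tested genes were called higher and 1 lower (median 0.76), and the summed level was 6947 and 8204 TPM against 12905 and 13406 TPM.

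MHC class I molecules present cytosolic peptides to T cells, and the heavy chains, the light chain B2m and the machinery that makes and loads peptides are interferon targets. All 10 tested heavy chain and B2m genes were called higher, with a median of 1.33. H2-K1, a classical heavy chain, was 185 and 197 TPM with DMSO and 519 and 490 TPM with pre-p38i (log2 difference 1.40, SE 0.07, adjusted p = 8.99e-11). H2-Q4 was 24 and 34 TPM against 113 and 112 TPM (1.94, SE 0.13, adjusted p = 2.39e-09). H2-D1 was 219 and 242 TPM against 381 and 366 TPM (0.70, adjusted p = 6.88e-08). B2m, the most abundant of the list, rose from 2307 and 2447 TPM to 3716 and 3500 TPM (0.60, adjusted p = 1.28e-08). In these 4 genes the replicates of a group lay close together and the groups apart. Of the 10 genes, 7 have near-identical copies, so the split of reads between heavy chains is uncertain. Without DMSO replicate 1, 8 were called (median 1.09).

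The peptide supply genes rose at the proteasome and the transporter and were not called higher among the general chaperones. Of 12 tested, 9 were called higher and 1 lower (median 0.98). The immunoproteasome subunits Psmb8 (38 and 66 against 197 and 198 TPM), Psmb9 (21 and 31 against 83 and 102 TPM) and Psmb10 (81 and 99 against 192 and 228 TPM) had log2 differences of 1.96, 1.81 and 1.22. Psmb9 and the transporter subunit Tap1 (83 and 109 against 212 and 219 TPM) overlap on opposite strands, and reads of the shared stretch cannot be told apart. Tapbp, which docks the heavy chain at the transporter, was 184 and 202 TPM against 383 and 405 TPM (1.03, adjusted p = 1.7e-08). The chaperone Calr was the 1 gene called lower, at 883 and 875 TPM against 805 and 812 TPM (-0.12, adjusted p = 0.0258), a call that was lost in every fit that left out 1 library (highest adjusted p = 0.124) and under quantile normalization. Canx and Pdia3 had log2 differences of -0.12 and -0.11 and missed the test.

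The 12 largest rises, of genes that were called, averaged 5 TPM or more and had groups apart, were those of Gm12250, Olfr56, Tgtp2, Cxcl10, S100a9, Il18bp, Iigp1, Apol6, Psmb8, Gbp2, H2-Q4 and Serpina3g. The span of the olfactory receptor gene Olfr56 holds Ifi47, Tgtp1 and Tgtp2, so its values (1 and 3 against 14 and 19 TPM) cannot be told apart from theirs. Cxcl10, a T cell attractant and interferon-gamma target, was 3 and 3 TPM against 17 and 19 TPM (log2 difference 2.25, adjusted p = 0.0049). S100a9, a calcium-binding alarmin of myeloid and epithelial cells, was 2 and 5 TPM against 16 and 18 TPM (2.08, adjusted p = 0.0011). Il18bp, the decoy receptor of interleukin 18, was 5 and 11 TPM against 34 and 34 TPM and overlaps Numa1, which was 65 and 66 against 76 and 82 TPM. Apol6 was 3 and 4 TPM against 17 and 16 TPM, and the protease inhibitor Serpina3g was 1 and 2 TPM against 6 and 11 TPM. All of these were low with DMSO, and each TPM step of a rounded value weighs heavily there.

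Markers of other cell types were measured beside these genes. Macrophage markers were lower with pre-p38i. Of 16 tested markers (19 listed) 0 were called higher and 11 lower (median -1.08), and their summed level was 557 and 555 TPM with DMSO and 251 and 238 TPM with pre-p38i. In bulk RNA, fewer cells of a type and less RNA per cell cannot be told apart. Lyz2, the lysozyme of macrophages, fell from 248 and 275 TPM to 83 and 75 TPM (log2 difference -1.71, adjusted p = 7.85e-10). C1qc, a subunit of complement C1q, was 23 and 20 TPM against 6 and 4 TPM (-1.92). Of the defining markers, Csf1r was 4 and 3 TPM against 1 and 1 TPM, Adgre1 was 7 and 5 TPM against 3 and 3 TPM, and Ptprc, at 1 and 1 TPM against 1 and 2 TPM, was too low to be tested. The calls of Csf1r and Adgre1 were lost without DMSO replicate 1 or either pre-p38i library (highest adjusted p = 0.115 and 0.191). The count of markers called lower was 5 without pre-p38i replicate 1 and 7 without pre-p38i replicate 2 or DMSO replicate 1. The same sum was already lower in p38i-treated MEFs (250 and 256 TPM) than in untreated MEFs (385 and 361 TPM) before induction. The part of these cells in the differences was not tested.

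Of 11 T and NK cell markers 2 passed the filter, and the list summed to 12 and 8 TPM against 18 and 18 TPM, nearly all of it Cd3g (12 and 8 against 18 and 17 TPM, adjusted p = 0.0441, and at most 0.311 without DMSO replicate 2 or either pre-p38i library, where the call was lost). The defining markers Cd3e and Ncr1 were at 0 in the 4 libraries. Of 3 endothelial markers tested 1 was called, Tek, at 45 and 49 TPM against 58 and 57 TPM, a call lost without DMSO replicate 1 or either pre-p38i library (highest adjusted p = 0.17), and the defining markers Pecam1 and Cdh5 were at 0. Of 2 neural markers tested 0 were called, and the defining Sox10 and Elavl3 were at 0. The fibroblast identity markers summed to 7754 and 7234 TPM with DMSO and 5261 and 5387 TPM with pre-p38i, with 6 of 11 called lower and 0 higher (median -0.49), so fibroblast transcripts remained abundant in both groups and lower with pretreatment.

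Genes of the cell division cycle were higher with pre-p38i by modest amounts and in large numbers. Of 30 tested genes of mitosis, 29 were called higher and 0 lower (median 0.63), of 32 genes of DNA replication 26 were higher and 0 lower (0.55), and of 20 genes of cytokinesis 15 were higher and 0 lower (0.59), against 13.8% of all genes called higher. Under quantile normalization the counts were 28, 22 and 14, and in a fit of only the 6 day 3 libraries 18, 12 and 11. With the 4 libraries alone 10 mitosis and 8 replication genes were called. The summed level of the mitosis genes was 1100 and 1114 TPM against 1651 and 1639 TPM, and that of the replication genes was 1159 and 1241 TPM against 1704 and 1730 TPM.

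The promoters of Cenpf and Kif11 are shown, in windows of the same kind. Both are among the mitosis genes with the largest differences, and that list moved nearly as a whole. Only promoters that hold both motifs marked here were eligible, so their presence in these windows follows from the choice. The capitals mark TTTGAA, the core of the cell cycle homology region through which late cell cycle genes are held down outside G2 and M, and CCAAT, the NF-Y box, on either strand. This motif pair was chosen after the expression values were seen.
Cenpf, chr1:189688037-189688336, minus strand: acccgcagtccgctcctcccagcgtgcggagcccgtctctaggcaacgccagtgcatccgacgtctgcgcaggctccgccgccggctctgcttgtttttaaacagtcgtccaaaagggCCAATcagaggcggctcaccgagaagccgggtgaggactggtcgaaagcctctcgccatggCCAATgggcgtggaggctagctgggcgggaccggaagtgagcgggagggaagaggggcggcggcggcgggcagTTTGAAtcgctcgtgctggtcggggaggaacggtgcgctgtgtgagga
Kif11, chr19:37376132-37376431, plus strand: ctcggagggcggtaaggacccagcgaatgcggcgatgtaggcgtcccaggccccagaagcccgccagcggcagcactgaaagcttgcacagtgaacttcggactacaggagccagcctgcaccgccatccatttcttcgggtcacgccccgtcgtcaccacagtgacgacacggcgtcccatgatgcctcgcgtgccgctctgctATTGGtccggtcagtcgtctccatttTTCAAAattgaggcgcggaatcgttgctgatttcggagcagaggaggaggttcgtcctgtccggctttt
The Cenpf window held TTTGAA at 1 place and CCAAT at 2, and the Kif11 window held each at 1 place. TTTGAA was in 18 of 26 matched mitosis promoters (69.2%), in 10 of 17 cytokinesis promoters (58.8%) and in 4 of 26 replication promoters (15.4%), against 20.2% of all genes. CCAAT was in 19 of the 26 mitosis promoters (73.1%), in 17 of the 26 replication promoters (65.4%) and in 7 of the 17 cytokinesis promoters (41.2%), against 41.1% of all genes. It was also in 8 of 8 matched MHC class I heavy chain and B2m promoters.

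In mitosis, Cenpf, a kinetochore protein, was 4 and 4 TPM with DMSO and 7 and 9 TPM with pre-p38i (log2 difference 0.84), and Kif11, the kinesin that pushes spindle poles apart, was 17 and 12 TPM against 25 and 26 TPM (0.79). The condensin subunit Ncaph was 25 and 27 TPM against 47 and 46 TPM (0.82, adjusted p = 1.84e-06). Ccna2, cyclin A2, was 42 and 42 TPM against 69 and 70 TPM (0.71, adjusted p = 4.11e-09). Top2a, which untangles sister chromatids, was 66 and 72 TPM against 118 and 107 TPM (0.70). The groups were apart in each of these genes. The 1 mitosis gene not called, Cdc25c, was 9 and 7 TPM against 11 and 9 TPM.

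In replication, Mcm6, a subunit of the replicative helicase, was 65 and 60 TPM against 104 and 104 TPM (log2 difference 0.73, SE 0.07). Mcm3 of the same helicase was 41 and 45 TPM against 66 and 72 TPM. Prim1, the primase, was 11 and 13 TPM against 20 and 23 TPM, and Pold1, the catalytic subunit of polymerase delta, was 9 and 11 TPM against 16 and 19 TPM. These genes rose by similar amounts although their levels differed several-fold. In cytokinesis, the step whose failure leaves binucleated cells, Racgap1 of the central spindle was 42 and 43 TPM against 67 and 72 TPM (0.70, adjusted p = 6.44e-07). Cep55, which recruits the abscission machinery to the midbody, was 9 and 10 TPM against 16 and 19 TPM (0.81), and the kinase Aurkb was 27 and 31 TPM against 47 and 45 TPM (0.65). The 5 cytokinesis genes not called were Pdcd6ip, Chmp4b, Tsg101, Rhoa and Spast, which also work in membrane traffic or the cytoskeleton outside division.

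The G1 genes and their inhibitors split. Of 20 tested, 9 were called higher and 6 lower (median 0.13), and the higher count was 4 to 5 when any of the 4 libraries was left out. Of the INK4 inhibitors of CDK4 and CDK6, Cdkn2a and Cdkn2b fell and Cdkn2c rose. Cdkn2a, which encodes p16 and p19ARF, was 287 and 313 TPM against 200 and 198 TPM (log2 difference -0.59, adjusted p = 2.01e-06), and Cdkn2b was 87 and 86 TPM against 56 and 61 TPM (-0.56). Cdkn1c, p57, was 59 and 40 TPM against 21 and 20 TPM (-1.21). The D-type cyclin Ccnd1 was also lower, at 1031 and 1056 TPM against 807 and 836 TPM (-0.34). Not every inhibitor fell. Cdkn1b, p27, was 11 and 14 TPM against 22 and 25 TPM (0.87), Cdkn2c was 19 and 16 TPM against 28 and 31 TPM (0.72), and the pocket protein gene Rbl1 was 7 and 8 TPM against 15 and 16 TPM (0.96).

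Trp53 and the targets of p53, the transcription factor that halts division or kills cells after damage, were called lower or not called. Of 23 tested, 0 were called higher and 9 lower (median -0.04), against 6.87% of all genes called lower, and the count was 4 without pre-p38i replicate 1 and 5 without either DMSO library. Pmaip1, which encodes the killer protein Noxa, was 25 and 23 TPM against 12 and 12 TPM (log2 difference -0.94). Ccng1 was 747 and 752 TPM against 589 and 556 TPM (-0.39). Cdkn1a, p21, was 1258 and 1191 TPM against 1063 and 1061 TPM (-0.20, adjusted p = 0.00259), and was not called under quantile normalization. Mdm2, the ligase that degrades p53, was 185 and 202 TPM against 152 and 159 TPM (-0.31), a call lost without DMSO replicate 2 (adjusted p = 0.0592). Other targets were not called, among them Bax, at 476 and 526 TPM against 485 and 501 TPM. Trp53 itself was 156 and 142 TPM against 170 and 165 TPM and was not called (0.17, adjusted p = 0.0758).

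The 29 listed genes of the endogenous pluripotency network summed to 266 and 236 TPM with DMSO and 323 and 326 TPM with pre-p38i on day 3, against 68 and 59 TPM in untreated MEFs. L1td1 held the largest part of the day 3 sum, at 146 and 143 TPM against 163 and 179 TPM. Nanog, Esrrb and Dppa5a were listed at 0 in all 4 libraries and Dppa3 was too low to be tested. Of 18 genes tested out of 29, 5 were called higher and 1 lower (median 0.22), against 13.8% and 6.87% of all genes. Fewer were higher when a library was left out, and 1 was in the fit of 6 libraries. The 5 were Nr0b1 (6 and 3 against 15 and 10 TPM, log2 difference 1.33), Zfp42 or Rex1 (6 and 4 against 10 and 13 TPM, 1.07), Mycn (0 and 1 against 2 and 2 TPM), Tfcp2l1 (10 and 10 against 20 and 18 TPM, 0.86) and Gdf3 (5 and 6 against 9 and 10 TPM, 0.69). Each of the 5 lost its call without 1 library or another: Nr0b1 without DMSO replicate 2 (adjusted p = 0.0515), Tfcp2l1 without pre-p38i replicate 1 (0.0521), Zfp42 without DMSO replicate 2 or pre-p38i replicate 2 (highest 0.124), Gdf3 without DMSO replicate 1 or pre-p38i replicate 2 (highest 0.0635), and Mycn without DMSO replicate 1 or either pre-p38i library (highest 0.229). Lefty1, the Nodal antagonist, was called lower at 8 and 6 TPM against 2 and 4 TPM, shares sequence with a copy, and lost the call without DMSO replicate 1, DMSO replicate 2 or pre-p38i replicate 1 (highest adjusted p = 0.345).

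Most of the epithelial genes that were called were higher with pre-p38i. Of 30 tested, 10 were called higher and 1 lower, against 13.8% and 6.87% of all genes. The adhesion and junction genes summed to 242 and 218 TPM with DMSO and 321 and 311 TPM with pre-p38i. The desmosome and keratin genes summed to 712 and 706 TPM with DMSO and 647 and 648 TPM with pre-p38i. Cdh1, E-cadherin, was 33 and 30 TPM with DMSO and 66 and 65 TPM with pre-p38i (log2 difference 1.03, SE 0.10, adjusted p = 3.36e-07), and it kept its call with the 4 libraries fitted alone (adjusted p = 0.0306). Epcam, another adhesion molecule of epithelia, was 8 and 10 TPM against 21 and 24 TPM (1.24). Of 14 adhesion and junction genes tested, 5 were called higher and 0 lower (median 0.46), with 3 higher without pre-p38i replicate 1 and 2 without DMSO replicate 2. The tight junction gene Cldn3 was 1 and 0 TPM against 3 and 2 TPM and lost its call without DMSO replicate 2 or either pre-p38i library (highest adjusted p = 0.309). Krt8, a keratin of simple epithelia, was 10 and 10 TPM against 27 and 27 TPM (1.35, adjusted p = 0.0002). Of 10 keratin and related genes 3 were called higher (1 without DMSO replicate 1 or pre-p38i replicate 2) and 1 lower, the lower one being the desmosomal p53 target Perp (411 and 407 against 335 and 325 TPM), whose call was lost without pre-p38i replicate 2 (adjusted p = 0.0532).

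Of the mesenchymal transcription factors, which repress epithelial genes, 2 of 11 were called higher and 2 lower (median -0.17). The shares of all genes were 13.8% and 6.87%, so the higher count lies near its share. Under quantile normalization 2 were higher and 4 lower. Twist2 was 46 and 41 TPM against 31 and 27 TPM (log2 difference -0.57) and Snai1 was 6 and 4 TPM against 3 and 2 TPM, while Tbx15 was 28 and 26 TPM against 35 and 35 TPM. Snai1 lost its call without DMSO replicate 1 or pre-p38i replicate 2, and Tbx15 without DMSO replicate 2 or either pre-p38i library (highest adjusted p = 0.186 and 0.0864). Twist1 (155 and 144 against 131 and 137 TPM) and Zeb1 (17 and 16 against 14 and 15 TPM) were not called (adjusted p = 0.0849 and 0.284). The mesenchymal surface and cytoskeletal genes moved more. Of 12 tested, 7 were called lower and 0 higher (median -0.54), against 6.87% of all genes. Fn1, fibronectin, was 1041 and 982 TPM against 530 and 514 TPM (-0.95), Thy1 was 52 and 54 TPM against 31 and 32 TPM (-0.73), and the intermediate filament gene Vim was 3734 and 3522 TPM against 2552 and 2598 TPM (-0.49). No library of one group reached the range of the other in these genes.

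Extracellular matrix genes, the longest list, held many that fell. Over 63 tested matrix genes 34 were called lower and 2 higher, and the summed level was 15912 and 15017 TPM with DMSO and 10526 and 10741 TPM with pre-p38i. Of 8 fibrillar collagens 6 were lower and 1 higher (median -0.63). Col1a1, the main chain of collagen I, was 719 and 620 TPM against 340 and 368 TPM (log2 difference -0.91, adjusted p = 3.03e-07). Col3a1 was 632 and 607 TPM against 361 and 394 TPM (-0.71). The cartilage collagen Col2a1 was the 1 called higher, at 27 and 28 TPM against 38 and 41 TPM (0.51). Of 6 basement membrane genes 2 were lower and of 8 other collagens 3 were lower, with 0 higher in either list.

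The proteoglycans, matricellular proteins and crosslinking enzymes held the largest matrix changes, with 17 of 26 called lower and 1 higher (median -0.63). Tnc, tenascin C, an adhesion-modulating protein of healing wounds, fell from 178 and 182 TPM to 58 and 63 TPM (log2 difference -1.56, SE 0.09). Thbs1, thrombospondin, an activator of latent TGF-β, was 219 and 218 TPM against 82 and 82 TPM (-1.40). Bgn, biglycan, was 575 and 543 TPM against 216 and 213 TPM (-1.38), and Spp1, osteopontin, was 1206 and 1098 TPM against 474 and 415 TPM (-1.37). Replicates lay close together in these genes and the groups lay far apart. Postn, periostin, was 118 and 123 TPM against 47 and 45 TPM (-1.37), and Lox, which crosslinks collagen, was 69 and 71 TPM against 29 and 29 TPM (-1.24). Of 15 proteases and their inhibitors 6 were lower (3 without pre-p38i replicate 1 or DMSO replicate 1) and 0 higher, led by the inhibitor Timp2 at 630 and 619 TPM against 318 and 324 TPM (-0.96).

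Genes of TGF-β signalling, which drives matrix synthesis and contractility, were partly lower. Of 15 ligands, receptors, latency proteins and targets 8 were called lower and 0 higher (median -0.44), with 4 without DMSO replicate 1, 5 without pre-p38i replicate 1, 3 in the fit of 6 libraries and 0 with the 4 libraries alone. The ligand Tgfb3 was 28 and 24 TPM against 16 and 14 TPM (log2 difference -0.75), Tgfb1 was 37 and 33 TPM against 24 and 23 TPM (-0.55), and the target Ctgf was 315 and 293 TPM against 230 and 219 TPM (-0.44). Of 15 BMP genes 2 were lower and 3 higher, against 6.87% and 13.8% of all genes. The secreted BMP antagonist Grem1 fell from 292 and 288 TPM to 101 and 103 TPM (-1.50, SE 0.05), and Id2, a BMP target that blocks bHLH factors, rose from 69 and 70 TPM to 102 and 105 TPM (0.57). Of 13 contractile genes 6 were lower and 1 higher. Tagln, an actin-binding protein of smooth muscle and myofibroblasts, was 38 and 41 TPM against 14 and 13 TPM (-1.48), while Actg2 was 71 and 66 TPM against 90 and 103 TPM (0.49), a call lost without replicate 2 of either group (highest adjusted p = 0.0775).

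**Figure D3:**
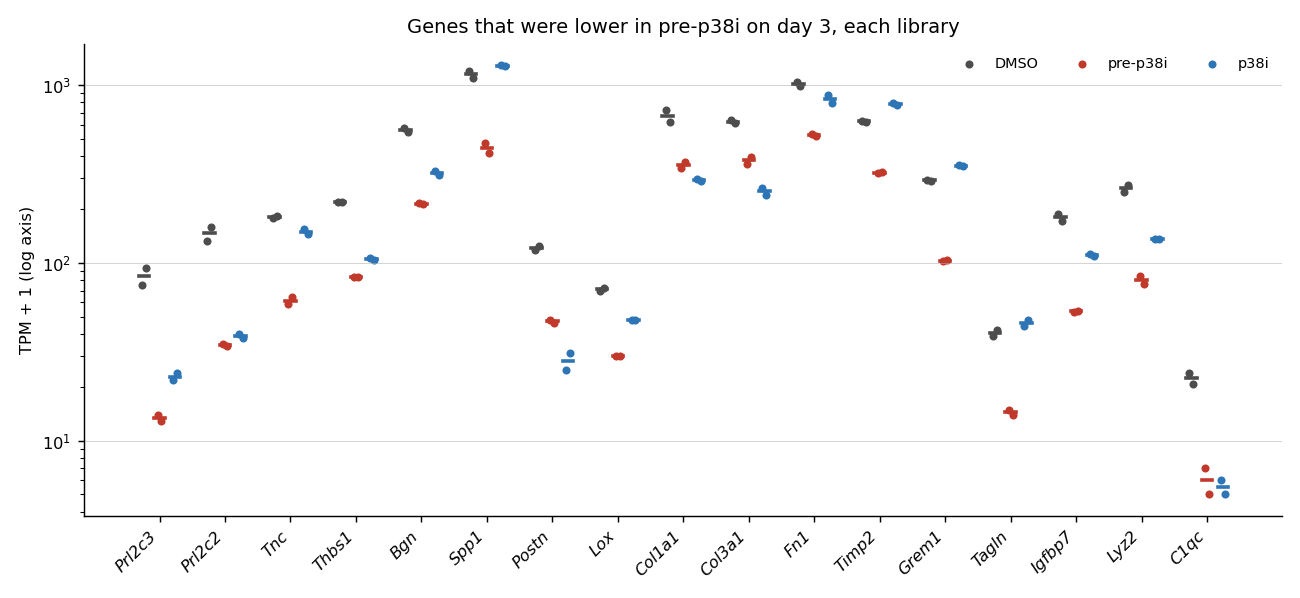
TPM + 1 on a log axis for 17 genes named among those that fell, in each day 3 library, with a bar at each group's mean (DMSO, pre-p38i and p38i, n = 2 each). The pre-p38i libraries lie below the DMSO libraries for every gene drawn, from Prl2c3 (13 and 12 against 74 and 93 TPM) to C1qc (6 and 4 against 23 and 20 TPM), while the p38i libraries lie above DMSO for Spp1, Timp2, Grem1 and Tagln.

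The gene that fell most was Prl2c3, a proliferin. Proliferins are secreted relatives of prolactin, made by the placenta and by growing fibroblasts in culture. Prl2c3 was 74 and 93 TPM with DMSO and 13 and 12 TPM with pre-p38i (log2 difference -2.64, SE 0.20), and Prl2c2 was 132 and 159 TPM against 34 and 33 TPM (-2.08). The proliferin genes are near-identical copies, so only their sum is firm, at 206 and 254 TPM against 48 and 46 TPM. The other genes of the 12 that fell most were Gm1045 (8 and 9 against 1 and 2 TPM, with its call lost without pre-p38i replicate 1, adjusted p = 0.0881), C1qc, Crct1 (16 and 18 against 3 and 5 TPM), the leukocyte tetraspanin Cd53 (10 and 9 against 2 and 2 TPM), Igfbp7, Lyz2, Fabp3, Scg2 (9 and 8 against 2 and 2 TPM), Gap43 and Tnc. Igfbp7, an insulin-like growth factor binding protein of senescent cells and vessels, was 188 and 172 TPM against 52 and 53 TPM (-1.76). Fabp3, a fatty acid carrier, was 36 and 34 TPM against 13 and 8 TPM (-1.68), and Gap43, a growth cone protein, was 38 and 31 TPM against 12 and 10 TPM (-1.56). C1qc, Cd53 and Lyz2 are leukocyte genes and moved with the macrophage sum given above.

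The inhibitor's own pathway showed little at the RNA level on day 3. Its counts are read against 13.8% of all genes called higher and 6.87% called lower. Of 13 genes of the p38 kinases and their upstream and downstream kinases 0 were called in either direction (median 0.00), with 1 higher without DMSO replicate 2. Mapk14, which encodes p38α, was 40 and 40 TPM against 40 and 41 TPM (log2 difference 0.02, adjusted p = 0.916). Mapk13 was 21 and 25 TPM against 17 and 22 TPM, and Mapk11 and Mapk12 were at 0 to 2 TPM in the 4 libraries. RNA levels do not report kinase activity. Of 9 MAP kinase phosphatases Dusp6, a feedback target of ERK, was higher (52 and 63 against 82 and 81 TPM, 0.50) and Dusp14 was lower (330 and 355 against 294 and 262 TPM, -0.30). Of 11 AP-1 genes 0 were called (median 0.01), with Jun at 93 and 80 TPM against 88 and 86 TPM and Fos at 15 and 10 TPM against 21 and 16 TPM (adjusted p = 0.068).

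Inflammatory mediators did not move as 1 group. Their counts are read against 13.8% of all genes called higher and 6.87% called lower. Of 13 chemokines 5 were called higher and 1 lower (median 0.53), with 3 higher without pre-p38i replicate 1 or DMSO replicate 1 and 0 called in the fit of 6 libraries. Ccl2, a monocyte attractant, was 234 and 301 TPM with DMSO and 381 and 458 TPM with pre-p38i (log2 difference 0.65, adjusted p = 0.000531). Of 10 cytokine and prostaglandin genes 5 were lower (3 without pre-p38i replicate 1 or DMSO replicate 2) and 1 higher (median -0.55). Ptgs2, the inducible cyclooxygenase COX-2, was 47 and 52 TPM against 29 and 32 TPM (log2 difference -0.68). Csf1, the macrophage growth factor, was 40 and 43 TPM against 55 and 57 TPM (0.42), higher while macrophage markers were lower.

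Of the enzymes that copy or remove DNA methylation, 5 of 6 were called higher and 0 lower (median 0.54), with 3 when any library was left out. Uhrf1, which brings Dnmt1 to replicating DNA, was 37 and 43 TPM against 73 and 70 TPM (log2 difference 0.83), Dnmt1 was 54 and 55 TPM against 83 and 82 TPM (0.59), and the oxidase Tet2 was 10 and 14 TPM against 28 and 25 TPM (1.10). Among 9 glypicans and syndecans 4 were lower (fewer without pre-p38i replicate 1) and 1 higher. The latter was Gpc3, a Hedgehog-binding oncofetal protein, at 5 and 3 TPM against 13 and 14 TPM (1.56). Gpc3 had been 21 and 19 TPM in untreated and 111 and 98 TPM in p38i-treated MEFs, and 10 and 7 TPM with DMSO against 61 and 65 TPM with pre-p38i on day 1. Of 13 imprinted genes 3 were higher and 1 lower, with Dio3, which inactivates thyroid hormone, at 11 and 10 TPM against 27 and 28 TPM (1.31). Of 14 epidermal genes 3 were higher and 2 lower, with Krt6a at 8 and 8 TPM against 18 and 17 TPM. Of all genes 13.8% were called higher and 6.87% lower. The imprinted and epidermal counts lie near those shares and are not read as changes of the lists.

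Metabolic and stress genes are read against 13.8% of all genes called higher and 6.87% called lower. Of 25 glycolysis and hypoxia genes 2 were higher and 3 lower (1 lower without any 1 of pre-p38i replicate 1, pre-p38i replicate 2 and DMSO replicate 1), with Vegfa at 9 and 10 TPM against 6 and 5 TPM (log2 difference -0.69). Of 29 cholesterol and fatty acid synthesis genes 6 were higher and 0 lower (median 0.16). Under quantile normalization 3 were higher and 1 lower, and fewer were higher without pre-p38i replicate 1 or either DMSO library. Of 18 ATF4 targets 1 was higher and 2 lower, with Nupr1 at 256 and 243 TPM against 158 and 144 TPM (-0.72). Of 4 metallothionein and zinc export genes 0 were called (median 0.06).

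The medians of the gene groups differed between days. Before induction, in p38i-treated against untreated MEFs, the IRG, GBP, antiviral and MHC class I heavy chain medians were all 0.00, and on day 1 they were 0.00, 0.00, 0.00 and -0.16. Most IRGs and GBPs were listed at 0 to 2 TPM in all 4 MEF libraries, so a median of 0.00 there does not show that they did not differ. Of the 10 heavy chain and B2m genes 4 were called lower and 1 higher in the treated MEFs. On day 3 they were 1.79, 1.57, 0.77 and 1.33, on day 5 0.24, 0.33, 0.13 and 0.60, and on day 7 0.64, 0.54, 0.10 and 0.42. The change of the pre-p38i difference from day 1 to day 3, tested as a contrast of differences in limma, was called higher for 7 of 8 IRGs, 6 of 9 GBPs, 13 of 34 antiviral genes (1 lower) and 8 of 10 heavy chain genes. From day 3 to day 7 the difference was called smaller for 3 IRGs, 2 GBPs, 11 antiviral and 7 heavy chain genes, with 0 larger in any of the 4 lists. In all genes 786 changed their difference from day 1 to day 3 (5.94%), 559 upward (4.23%) and 227 downward (1.72%), and 1081 did from day 3 to day 7 (8.17%), 200 upward (1.51%) and 881 downward (6.66%). From day 3 to day 5 the share was 1.07%, with 0.265% upward and 0.801% downward. Taken singly, the days called 11.6% of genes on day 1 (5.4% higher, 6.24% lower), 25.6% on day 5 (14.3% and 11.3%) and 29.9% on day 7 (15.4% and 14.5%).

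Gbp2 shows the course. With DMSO it was 6 and 9 TPM on day 1, then 156 and 237, then 299 and 285 on day 5, and finally 87 and 80 on day 7. In the pre-p38i arm it began at 7 and 6 TPM, stood at 734 and 751 on day 3, and came down to 400 and 429 by day 5 and to 121 and 125 by day 7. Both arms started level and both peaked, the pre-p38i arm on day 3 and the DMSO arm on day 5 of the days sampled. H2-K1 was higher on day 5 than on day 3 in both arms, at 1591 and 1383 TPM with DMSO and 2250 and 2356 TPM with pre-p38i.

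**Figure D4:**
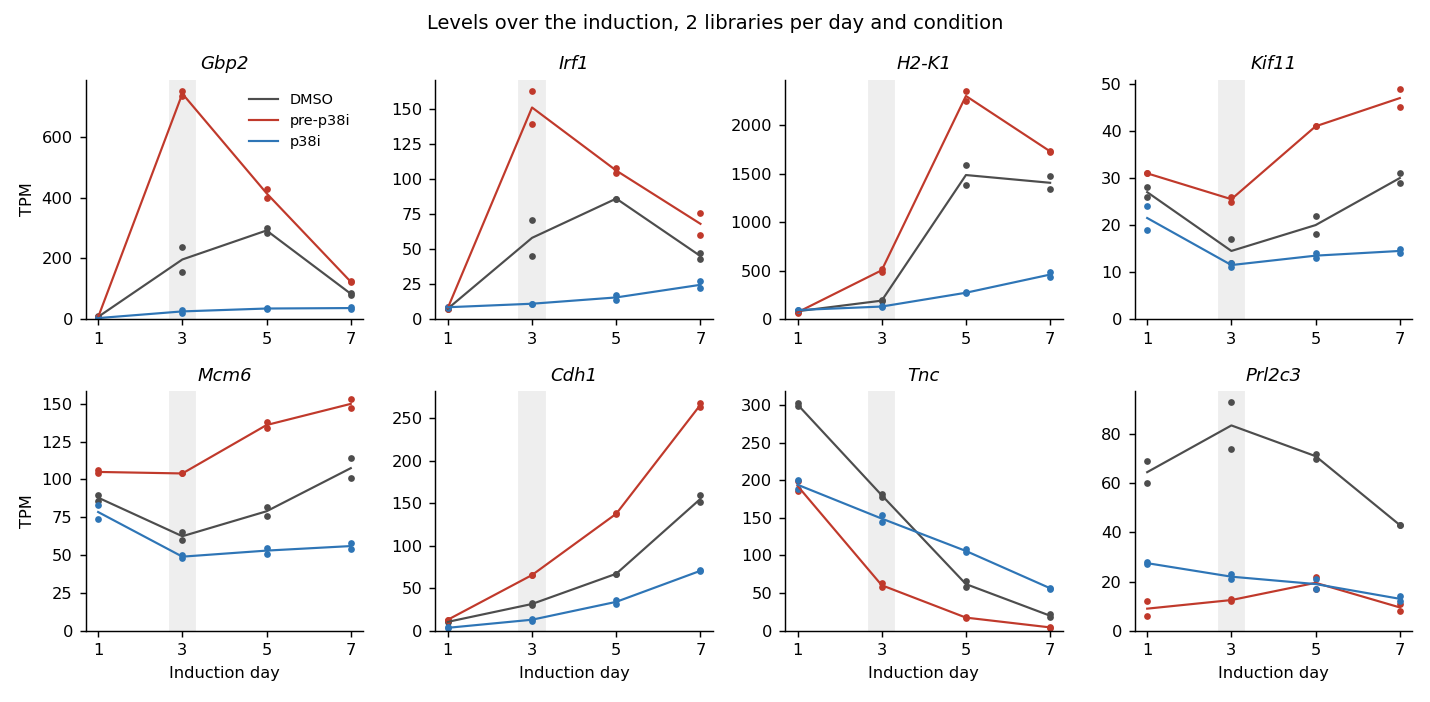
TPM by induction day (1, 3, 5 and 7) for Gbp2, Irf1, H2-K1, Kif11, Mcm6, Cdh1, Tnc and Prl2c3, with points for libraries and lines through group means (DMSO, pre-p38i and p38i, n = 2 each) and day 3 shaded. Gbp2 peaks at 734 and 751 TPM on day 3 with pre-p38i and at 299 and 285 TPM on day 5 with DMSO, whereas Prl2c3 is lower with pre-p38i on every day drawn.

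Cell cycle genes were partly higher before induction, less so on day 1 and again from day 3. The mitosis median was 0.29 in MEFs (17 of 30 called higher, against 9.73% of all genes there), -0.01 on day 1 (1 called), 0.63 on day 3, 0.86 on day 5 (30 called) and 0.61 on day 7 (30 called), and its change from day 1 to day 3 was called higher for 22 genes. The replication medians were 0.27, 0.12, 0.55, 0.72 and 0.46, with 4 of 32 genes called higher on day 1 against 5.4% of all genes that day, and with 9 genes called in the change from day 1 to day 3. Kif11 was 26 and 28 TPM with DMSO and 31 and 31 TPM with pre-p38i on day 1, and 18 and 22 TPM against 41 and 41 TPM on day 5. The DMSO libraries of Kif11 were thus lowest on day 3, at 17 and 12 TPM, and reached 31 and 29 TPM on day 7.

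The fibrillar collagen and proliferin medians lay below 0 from before induction. The fibrillar collagen medians were -0.73 in MEFs (where 8.15% of all genes were called lower) and -0.41, -0.63, -0.63 and -0.71 on days 1, 3, 5 and 7. Those of the proliferins were -3.63, -2.37, -2.36, -1.91 and -2.31, with 0 proliferins called in the change from day 1 to day 3. The proliferin medians rest on 2 tested genes that are near-identical copies. In treated MEFs Prl2c3 was 0 and 0 TPM and Prl2c2 was 0 and 1 TPM, so the size of the MEF median is uncertain. The proteoglycan and matricellular list went from -0.11 in MEFs and -0.25 on day 1 to -0.63 on day 3 and -1.05 on day 7, with 7 genes called in the change from day 1 to day 3, all downward. The macrophage median was -0.68 in MEFs and between -1.08 and -1.68 on the 4 induction days. TGF-β genes were at -0.03 and -0.08 before day 3 and at -0.44 on day 3. The adhesion genes were at 0.00 in MEFs and on day 1 and at 0.46 on day 3. Their list summed to only 25 to 38 TPM in the MEF libraries, so a median of 0.00 there does not show that they did not differ. Of 14 tested, 2 were called lower in the treated MEFs, and 1 was called higher and 1 lower on day 1.

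**Figure D5:**
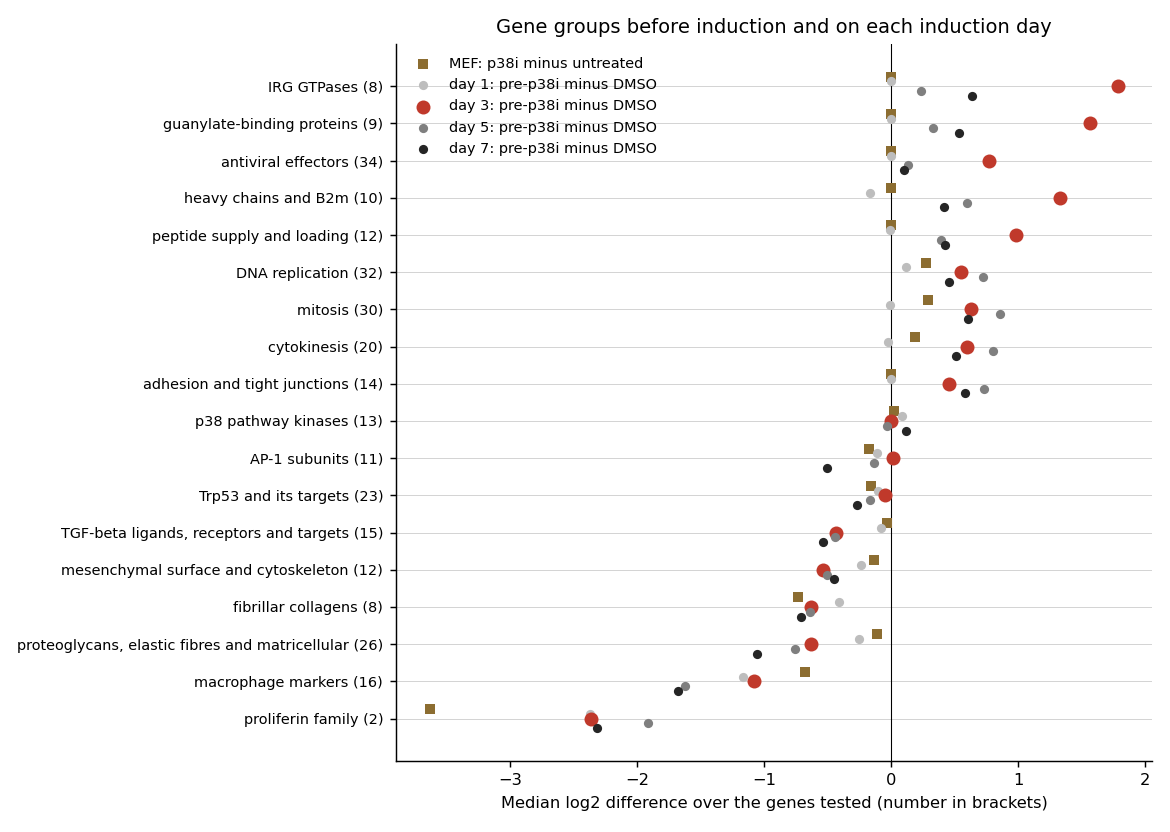
Median log2 difference of each of 18 gene groups, p38i-treated minus untreated MEFs (squares) and pre-p38i minus DMSO on induction days 1, 3 (large red points), 5 and 7, each from n = 2 against 2 libraries. The IRGs, GBPs, antiviral genes and MHC class I heavy chains lie at or near 0 in MEFs and on day 1 and furthest right on day 3 (IRGs 1.79), while the proliferins lie between -3.63 and -1.91 throughout.

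Across all genes, the day 3 calls were set beside 2 comparisons that share no library with them. Of 1287 genes called higher in p38i-treated MEFs, 315 were called higher on day 3 (24.5%, and 17.3% of the day 3 higher calls), against 13.8% of all genes. Of 1078 genes called lower in treated MEFs, 258 were lower on day 3 (23.9%, and 28.4% of the day 3 lower calls), against 6.87%. Of 3655 genes that rose in DMSO from day 1 to day 5, 826 were higher with pre-p38i on day 3 (22.6%, and 45.4% of the higher calls, against 27.6% of all genes that rose), and of 2955 that fell, 505 were lower (17.1%, and 55.6% of the lower calls, against 22.3% of all genes that fell). In the opposite direction, 353 of the genes that fell were called higher (19.4% of the higher calls) and 166 of those that rose were called lower (18.3% of the lower calls). For the MEFs, 129 genes lower there were higher on day 3 (7.09% of the higher calls) and 98 genes higher there were lower on day 3 (10.8% of the lower calls). The gene groups did not all go along with that course. In DMSO from day 1 to day 5 the IRG median was 7.04, the antiviral median 3.80 and the heavy chain median 4.04, in the same direction as pretreatment on day 3. The mitosis median over that course was -0.60, with 28 of 30 genes called lower, opposite to the direction of pretreatment.

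Placed on the line from the DMSO day 1 mean (0) to the DMSO day 5 mean (100) over all tested genes, the DMSO day 3 libraries lay at 68.9 and 69.7 (mean 69.3 ± 0.529, SD, n = 2) and the pre-p38i day 3 libraries at 85.7 and 84.3 (85.0 ± 1.0, SD, n = 2). The difference was 15.7 (exact permutation test, two-sided, p = 0.33, the smallest that 2 against 2 libraries allow). The p38i libraries lay at 46.0 and 45.8, but at 76.1 and 72.5 without a logarithm, where DMSO lay at 78.1 and 78.3. The gap of 15.7 was 7.84 when TPM were used without a logarithm.

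SB203580 during induction gave a different day 3 profile. Since the p38i and pre-p38i comparisons share the DMSO libraries, their values are only set side by side. Gbp2 was 21 and 30 TPM and Gm12250 was 0 and 0 TPM with p38i, and the p38i minus DMSO medians were -3.81 for the IRGs (8 of 8 called lower, against 16.2% of all genes), -2.35 for the GBPs (9 of 9 lower) and -0.90 for the heavy chains (9 of 10 lower), where pre-p38i had 1.79, 1.57 and 1.33. With p38i 5.22% of all genes were called higher than DMSO. The mitosis medians were -0.27 with p38i and 0.63 with pre-p38i. For the fibrillar collagens they were -0.72 and -0.63, for the proliferins -1.89 and -2.36 and for the macrophage markers -1.05 and -1.08, so these 3 groups were lower than DMSO in both arms. Cdh1 was 14 and 12 TPM with p38i, and Krt8 was 1 and 2 TPM. In the direct test of p38i against pre-p38i on day 3, which uses no DMSO library, 5579 genes were called, or 42.2% of those tested, 25.5% of the calls being higher with p38i, or 53.7% under quantile normalization.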

How the data were processed

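The deposited table holds 1 whole number per gene and library for 50600 genes and 28 libraries in 14 groups of 2. Per the labels, mRNA was taken with oligo-dT and primed with random hexamers, and the submitters' processing notes name bcl2fastq, Bowtie2 2.2.5 and RSEM 1.3.0 and the builds mm10 and hg38 without a role. The deposited values were treated as a score and read as TPM that the authors rounded down, which no source states and which rests on library sums of 991287 to 992537. Read depth is therefore unknown, no count model, interval or detection limit was used, and their number limits the precision. No strand marking is stated, so reads of overlapping and antisense genes cannot be told apart. Labels and methods name different library kits, RNA extraction and MEF media.

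Groups came from the labels. The 13230 genes averaging 1 or more across all 28 libraries were tested on log2(value + 1) in limma 3.58.1 (R 4.3.3; lmFit, eBayes with a trend), with all 14 groups in 1 model and no covariate. Benjamini-Hochberg adjusted p under 0.05 made a call. The script was tested on simulated data with 200 changed genes. Alternatives were no filter on low values or a stricter one at a mean of 5, a pseudocount of 0.1, quantile normalization, a replicate block, fits of the 4 or 6 day 3 libraries, and leaving out each library. Near-identical copies were found with BLAST 2.17.0+ (at least 95% identity over 200 bases). Of the identifiers 99.6% are in GENCODE M21 (GRCm38). Promoters came from RefSeq GRCm38.p6. Tables and plots used python 3.11.15 with pandas 2.3.3, numpy 2.4.6 and matplotlib 3.10.9.

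The members and gene lists were chosen with earlier results of these data known. The genes named were the 12 largest rises and 12 largest falls among calls that averaged 5 or more and had groups apart. A fixed set of pluripotency, epithelial, mesenchymal and p38 genes was also named, with Trp53. So were up to 6 called members of each list by size of change, and uncalled members. The interferon promoters were those of the leading interferon-inducible genes outside chromosome 18 that hold a searched motif. Outside that rule, Tgtp1, Irgm1, Gbp7, Bst2, Isg15, B2m, Ccna2, Top2a, Ccnd1, Cdkn2b, Cdkn1a, Snai1, Mycn, Calr, Csf1r, Adgre1 and the Cenpf and Kif11 promoters were chosen after their values were seen. Leaving out a library of a group leaves 1, which was assumed to vary like the other groups.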

Additional observations from a re-analysis of the deposited data

Results flagged for a closer look

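The difference between pre-p38i and DMSO was not the same on all days, as tested by contrasts of differences in limma with Benjamini-Hochberg adjustment (n = 2 libraries per group and day). The difference changed from day 1 to day 3 in 786 genes, from day 3 to day 5 in 141 genes and from day 3 to day 7 in 1081 genes. Among the 12 genes that rose most, the difference grew from day 1 to day 3 by 2.63 log2 units for Gm12250, 2.61 for Olfr56, 2.32 for Tgtp2, 2.75 for Cxcl10, 2.08 for S100a9, 2.54 for Il18bp, 2.04 for Iigp1, 1.97 for Apol6, 2.10 for Gbp2, 1.81 for H2-Q4 and 1.90 for Serpina3g. From day 3 to day 7 it changed by -1.33 for Gm12250, -1.98 for Olfr56, -2.88 for Cxcl10, -2.58 for S100a9, -1.38 for Iigp1, -1.70 for Apol6, -1.39 for Gbp2, -1.41 for H2-Q4 and -2.11 for Serpina3g, so the difference of these genes was smaller, or of the other sign, on day 7. Several of them stood at a few TPM on day 1 and day 7. Among the 12 genes that fell most, the difference became more negative from day 1 to day 3 for Gap43 (by -1.50) and Tnc (by -0.92) and from day 3 to day 7 for Lyz2 (by -1.83).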

How the results depend on the processing

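The comparison of pre-p38i with DMSO on day 3 kept the direction of every named gene called in all the alternatives run, but not every call. Of 212 named genes called, 53 kept the call throughout, and the calls lost were 145 with the 4 libraries fitted alone, 64 in the fit of the 6 day 3 libraries, 36 with a pseudocount of 0.1, 14 under quantile normalization, 11 without the filter, 10 with the replicate block, 0 with a minimum mean of 5, and 48, 39, 44 and 34 without pre-p38i replicate 1, pre-p38i replicate 2, DMSO replicate 1 and DMSO replicate 2. The count of called genes, 2729 in the main analysis, was 753 with the 4 libraries alone and 1478 in the fit of 6 libraries, which have fewer libraries to estimate the spread, and 1568 to 2050 when a library was left out. Replicate numbers are shared across groups, and the correlations between groups of replicate 1 minus replicate 2 were -0.0838 to 0.0874. Over all tested genes these showed no pairing of the libraries. They could not show a pairing confined to a few genes, and the labels do not say. The replicate block gave 2518 genes on day 3, 582 for the change from day 1 to day 3, 96 from day 3 to day 5, 924 from day 3 to day 7, 5352 for p38i against pre-p38i, 2156 in MEFs and 6493 for DMSO day 5 against day 1.

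The count for the change from day 1 to day 3 was 433 to 746 when a library was left out, with the lowest without DMSO day 3 replicate 1, 461 without pre-p38i day 3 replicate 2, 488 without pre-p38i day 3 replicate 1 or DMSO day 1 replicate 1 and 507 without pre-p38i day 1 replicate 2. Its share of upward calls was 51.6% under quantile normalization against 71.1%. From day 3 to day 5 the count was 238 without the filter and 61 to 140 when a library was left out (61 without DMSO day 5 replicate 2, 62 without pre-p38i day 3 replicate 1, 72 without pre-p38i day 5 replicate 1, 83 without pre-p38i day 5 replicate 2, 92 without pre-p38i day 3 replicate 2), and from day 3 to day 7 it was 691 to 868 (691 without pre-p38i day 3 replicate 1, 699 without DMSO day 7 replicate 2). Left-out ranges were 4222 to 4492 for p38i against pre-p38i on day 3, 1515 to 1676 for treated against untreated MEFs (1515 and 1571 without replicate 1 and 2 of the treated MEFs) and 5498 to 5791 for DMSO day 5 against day 1, whose share of upward calls was 42.4% under quantile normalization against 55.3%. The gap between the groups on the line of the DMSO course, 15.7, was 14.2 with a pseudocount of 0.1, 14.7 without the filter and 7.84 without a logarithm. Values rounded down to whole TPM limit what can be said of genes at a few TPM.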
